A study of Physalis pubescens with 5 samples.

Results

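The transcripts described here are 274 assembled unigenes whose protein database hit was named a polyprotein, a retrotransposon protein or a transposase, out of 133571 unigenes in all. They were chosen by those words, matched in any case in the deposited description, by at least 10 counts in 2 or more of the 4 libraries, and by the absence of the word virus. The words alone took 1454 unigenes without the word virus, so most element-like unigenes fell below the count minimum. Because the minimum reads the counts, it is not a finding that members were detected, and their levels are a description of what the rule kept.

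RNA was sequenced from plants of Physalis floridana P106, a nightshade entered under the organism name Physalis pubescens. The 2 groups were fruits, labelled as young fruits taken after fertilization, and floral buds, labelled as taken before it. An extraction text shared by all samples mentions 5-day-old fruits, without tying that age to a library. Plants of both groups grew under glass with 16 h light and 8 h dark, and no mutant or treatment is named for either. Each organ had 2 libraries, replicates 1 and 2 in the titles, called fruit 1, fruit 2, bud 1 and bud 2 here, although the submitters' design note speaks of triplicates. A mixed library made for assembly was not analysed here. The labels do not tie libraries to separate plants, so a p-value covers the spread between these libraries alone, which may be technical.

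Retrotransposons are mobile elements that copy themselves through an RNA intermediate. In the LTR class, which includes the copia (Ty1) and gypsy (Ty3) superfamilies and is abundant in nightshade genomes, the element encodes a gag protein that packages its RNA and a pol polyprotein that is cut into protease, reverse transcriptase, RNase H and integrase. DNA transposons instead move by a transposase that cuts and pastes DNA. Plants hold both kinds down with small RNAs, DNA methylation and methylation of histone H3 at lysine 9.

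The libraries held 8.2e+06 to 9.0e+06 counts, which makes 1 count 0.111 to 0.121 CPM, the count scaled to its library total. Over tested unigenes fruit 1 stood farthest from the others, with a Pearson's r of log2 CPM of 0.65 with fruit 2 and 0.77 with bud 1, against 0.89 between the buds and 0.94 for fruit 2 with bud 2. Over the 274 members, log2 CPM had a Pearson's r of 0.33 for the pair of fruits and 0.61 for the pair of buds, but 0.61 for fruit 1 with bud 1 and 0.84 for fruit 2 with bud 2. These are descriptions over members that share their libraries. Fruit 1 and bud 1 were deposited with other descriptions, and without the pathway column, than fruit 2 and bud 2; the former are called the first round here and the latter the second. Calls with either fruit library left out are given below for the members and the companion lists.

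The descriptions of the members were tallied. The rule matched these same descriptions, so the tally is no check of the group's label. The most frequent description was "Polyprotein, putative", with 117 members, followed by "Putative polyprotein, identical" with 22. Of the 274 descriptions, 42 named gag or gag-pol without naming copia or gypsy, 8 named gypsy, 5 named copia, 2 named a transposase, and 191 named a polyprotein without a class. The other 26 named a retrotransposon only, and none named a LINE, the non-LTR kind of retrotransposon. In the separate annotation of the first round, the rule also took 258 of the 274, and 249 had the same description in both. Most members thus kept such a name in both annotations, but both give database hits of the same unigenes. With the first-round description preferred, the rule took 354 unigenes, of which 96 were not members. Not all members need be elements. One member (Unigene21852_P106) was described as a micronuclear linker histone polyprotein, a name that belongs to a ciliate chromatin protein, although its hit is entered under Solanum bulbocastanum. An IS10 transposase description (Unigene11706_P106) names an insertion sequence known from bacteria, although the hit is entered under Solanum lycopersicum. Single members were named genome polyprotein-like, enzymatic polyprotein-like or polyprotein P3-like, and these names give no element class. The rule left out only descriptions with the word virus, so viral polyproteins named without it could remain.

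Most members matched few proteins. The 274 members hit 64 distinct database proteins, and 238 of them shared their hit with another member. A single potato-relative protein, a putative polyprotein of Solanum demissum, was hit by 85 members that were 168 to 1762 bases long. Of all hits, 228 (83.2%) were to Solanaceae species and 197 to Solanum demissum alone. Members that share a hit may be copies of an element family or fragments of 1 transcript, and reads of near-identical copies could have been split or dropped where the authors counted unique reads. Levels of single members are uncertain for that reason, and members are not independent of each other. The hits had E values of 9.72e-06 or less, and 237 members had one of 1e-10 or less.

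The pathway column of the second-round files named no element. It gave 83 members a term, and the commonest were 5'-3' exoribonuclease 2 for 12 members, a member of the ataxia telangiectasia mutated family for 11, and a nonaprenyl-diphosphate synthase, the cellular nucleic acid-binding protein and a ubiquitin ligase for 8 each. None of these names held an element word, and they differ from the protein description of the same unigene.

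Members were longer, lower and more thinly covered than other tested unigenes. Their median length was 623 bases, against 495 among the 59858 tested unigenes. Their median level per length was 3.03 RPKM in fruit 1, 2.54 in fruit 2, 4.41 in bud 1 and 2.11 in bud 2. The tested unigenes had medians of 10.6 to 11.7 RPKM in the same libraries. Reads reached a median of 50.5% to 72.8% of a member's length, against 85.6% to 87.9% over the tested unigenes. The longest member had 2541 bases.

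All members together took 793 CPM in fruit 1 (exact 95% interval 775 to 811), 753 CPM in fruit 2 (735 to 772), 1056 CPM in bud 1 (1034 to 1078) and 622 CPM in bud 2 (606 to 640). The buds thus held both the highest and the lowest sum, with both fruits between them. The mean was 773 ± 28.0 CPM for fruit against 839 ± 306 for buds (SD, n = 2), a difference smaller than the spread between the buds. The small SD for fruit holds for the sum alone, since the members' Pearson's r between the fruits was 0.33. Without 4 members at 0 in fruit 1 and high in fruit 2, chosen after their values were seen, the fruit SD was 109 CPM. No molecular identifiers are described, so these intervals cover counting error only. The smallest two-sided p that exact permutation of these libraries allows is 0.33, so the sums were not tested.

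**Figure D1:**
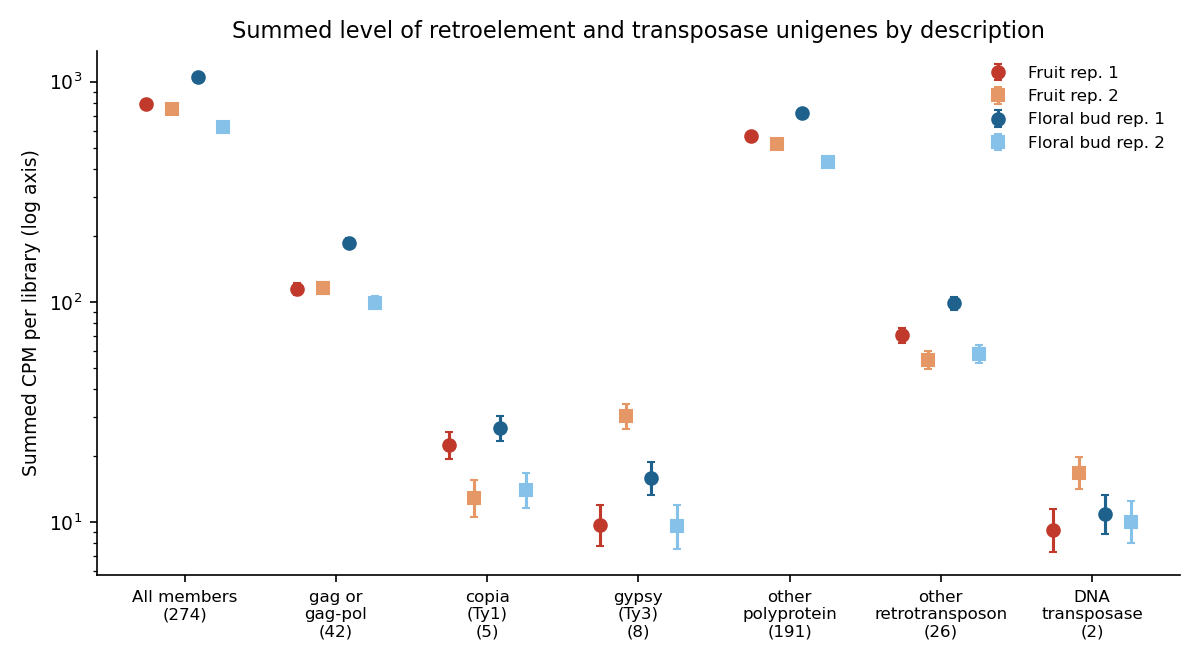
Summed CPM (log axis) of all 274 members and of each description class in each of the 4 libraries, with exact 95% counting intervals and the number of members in brackets. Bud 1 is the highest library for all members together (1056 CPM) and bud 2 the lowest (622 CPM), while the gypsy (Ty3) class is highest in fruit 2 (30.2 CPM).

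Fruit was compared with floral bud to find transcripts that differ between the organs, and no member was called. Of the 258 members that passed edgeR's filter on low counts, 0 were called higher and 0 lower in fruit by the quasi-likelihood test at a Benjamini-Hochberg adjusted p under 0.05, as were 0% of all 59858 tested unigenes. At an unadjusted p under 0.05, 1 member was higher and 1 lower, beside 0.51% and 1.11% of all tested unigenes. DESeq2 called 0 of the 251 members for which it gave an adjusted p, beside 0.0491% of tested unigenes called higher and 0.21% lower. The median log2 fold change of the tested members was -0.19, against 0.01 over all tested unigenes. That median was 0.42 without bud 1 and -0.56 without bud 2, so its sign depends on which bud library is kept.

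Few members kept the organs apart. Both fruits lay above both buds for 9 of the 274 members (3.28%), against 8.49% of tested unigenes, and below both buds for 29 (10.6%), against 13.6%. By the count minimum alone, the 3 members that passed it only through both fruits fall among the 9, and the 11 that passed only through both buds fall among the 29. Within the first round, fruit was at least 2-fold higher for 4 members and at least 2-fold lower for 46, beside 5.55% and 13% of tested unigenes. In the second round it was at least 2-fold higher for 23 members and at least 2-fold lower for 13, beside 5.55% and 3.55%. In both rounds, 1 member (0.365%) was at least 2-fold higher and 5 (1.82%) at least 2-fold lower. These shares were near the 0.473% and 1.84% of tested unigenes. For another 9 members, beside 2.51%, fruit was the lower organ by at least 2-fold in the first round and the higher by at least 2-fold in the second. None of these within-round differences has a replicate check.

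**Figure D2:**
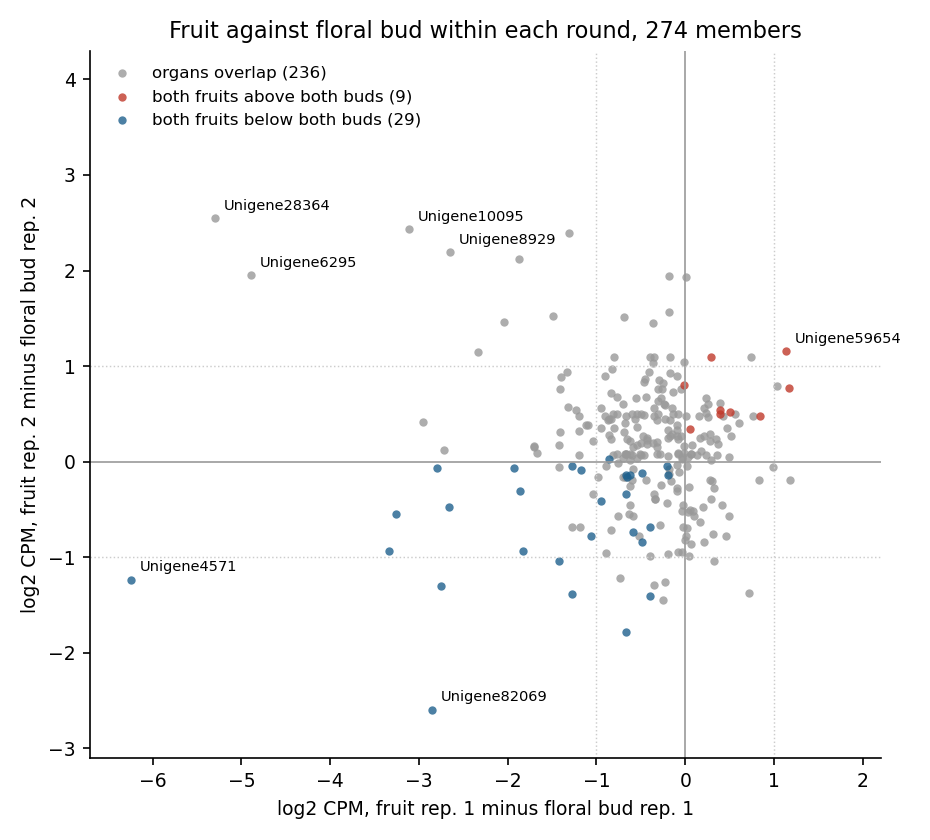
Each point is 1 of the 274 members, with the log2 CPM difference of fruit minus floral bud in the first round on the x axis and in the second round on the y axis; dotted lines mark 2-fold. Members with both fruits above both buds (9) are red, those with both fruits below (29) are blue, and 4 members with 0 counts in fruit 1 and a high level in fruit 2 are named at the upper left.

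Among the 42 members named gag or gag-pol, the most abundant was Unigene4251_P106, a gag-pol polyprotein hit of 1927 bases. It stood at 29.1 CPM in fruit 1, 20.1 in fruit 2, 29.1 in bud 1 and 12.4 in bud 2. The fruit values lie within the range of the buds. The log2 fold change was 0.26 (SE 0.48, edgeR adjusted p = 1). The 42 members of this class had a summed mean of 115 ± 1.28 CPM in fruit against 142 ± 61.0 in buds (SD, n = 2). Single members were less even, with fruit 1 at least 2-fold above fruit 2 for 5 and at least 2-fold below for 11. The shares over tested unigenes were 12.7% and 17.4%. Of the 42, 0 had both fruits above both buds and 7 had both fruits below, beside 8.49% and 13.6% of tested unigenes.

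The 5 copia members summed to 22.3 and 12.9 CPM in fruits 1 and 2, and to 26.7 and 14.0 CPM in buds 1 and 2. The most abundant, Unigene70088_P106, was a Ty-1 copia retrotransposon hit of 297 bases, at 9.11, 4.37, 10.8 and 5.49 CPM in the same order. Its first-round description was a hypothetical protein, which the rule does not take. Both first-round libraries were above both second-round libraries, and the organs overlapped. With a mean of 25.02 RPKM over the 4 libraries it had the highest level per length of all members, whose median was 3.18 RPKM.

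The 8 gypsy members were the class with the widest relative gap between the fruits. Their sum was 9.66 CPM in fruit 1, 30.2 in fruit 2, 15.8 in bud 1 and 9.55 in bud 2. A pair of unigenes described as gypsy retrotransposon integrase-like protein 1-like made up most of the fruit 2 level. Integrase is the enzyme that inserts the new copy into the genome. The first, Unigene10095_P106, had 0 counts in fruit 1 and stood at 13.2 CPM in fruit 2, 1.85 in bud 1 and 2.39 in bud 2. The second, Unigene8929_P106, had 0 counts and 9.59, 1.27 and 2.03 CPM in the same order, and hit the same protein, so the pair may be fragments of 1 transcript. Fruit 2 was thus the highest library for both, and fruit 1 the lowest.

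The 191 polyprotein members without a named class held most of the summed level, at 567 and 523 CPM in fruits 1 and 2 and 718 and 432 CPM in buds 1 and 2. Unigene74550_P106, a polyprotein hit to pineapple, was among the most even of the abundant members at 16.1, 16.7, 19.5 and 15.3 CPM. Unigene2487_P106 stood at 15.7, 14.7, 21.5 and 13.5 CPM in that order. For both, the fruits lay within the range of the buds. The log2 fold changes were -0.06 (SE 0.32) and -0.18 (SE 0.35, edgeR adjusted p = 1 for each).

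Of the 26 members named only as retrotransposon proteins, the most abundant was Unigene1241_P106, at 12.9 CPM in fruit 1, 11.3 in fruit 2, 19.3 in bud 1 and 13.1 in bud 2. Both fruits lay just below both buds, with a log2 fold change of -0.40 (SE 0.33, edgeR adjusted p = 1). The class had a summed mean of 62.6 ± 11.3 CPM in fruit against 78.3 ± 28.6 in buds. The IS10 transposase hit, Unigene11706_P106, was at 5.89 and 12.6 CPM in fruits 1 and 2 and at 5.78 and 6.33 CPM in the buds. The other transposase member, Unigene82518_P106, stood at 3.33, 4.13, 5.09 and 3.70 CPM in that order. Neither transposase kept the organs apart.

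Another pair of polyprotein members shared the pattern of the gypsy integrase pair. Unigene28364_P106, a polyprotein hit of 891 bases, had 0 counts in fruit 1, 52.8 CPM in fruit 2, and 9.25 and 9.31 CPM in the buds. Reads covered 99.0% of its length in fruit 2. Unigene6295_P106, described as a 3'-partial polyprotein, had 0 counts, 39.3 CPM, 6.94 CPM and 10.5 CPM in the same order. Against the floor of 3 counts in fruit 1, that library was at least 27.9-fold lower than the bud mean for the first and at least 26.2-fold lower for the second. Fruit 2 was 5.69 and 4.51 times the bud mean. The 4 members with this pattern made up 15.3% of the members' summed level in fruit 2, 1.83% in bud 1 and 3.89% in bud 2. Without them fruit 2 summed to 638 CPM. Fruit 1 was at least 4-fold below fruit 2 for 12 of the 274 members (4.38%), against 8.28% of tested unigenes. Unigene28364_P106, Unigene6295_P106 and Unigene10095_P106 are the named extremes of the gap between the fruits. Unigene8929_P106 was picked with its values in view, so the pattern of these 4 was set by the choice.

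**Figure D3:**
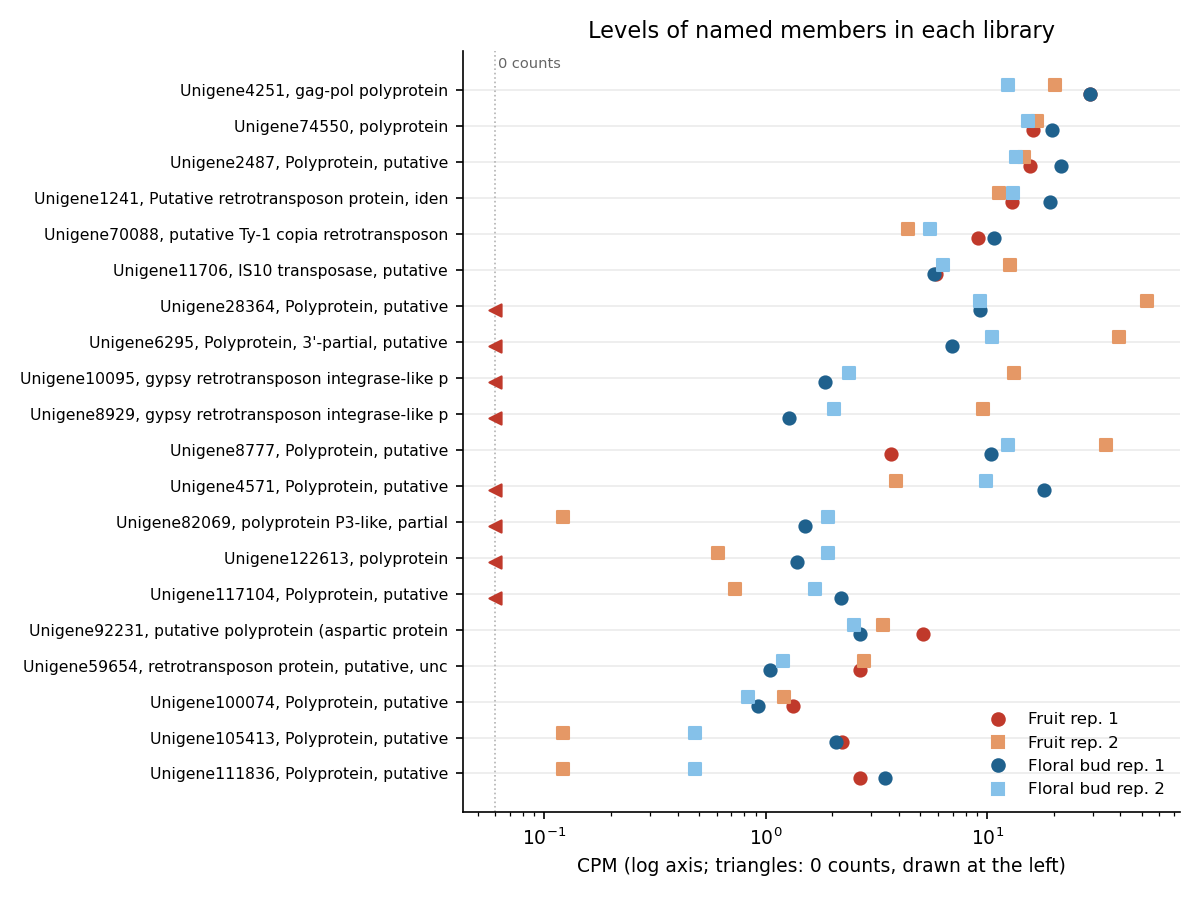
CPM (log axis) of 20 named members in fruits 1 and 2 (red and orange) and buds 1 and 2 (dark and light blue); triangles at the left mark 0 counts. Unigene28364_P106, Unigene6295_P106, Unigene10095_P106 and Unigene8929_P106 have 0 counts in fruit 1 and their highest level in fruit 2, whereas Unigene74550_P106 is at 15.3 to 19.5 CPM in all 4.

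Pollen and anther transcripts, a list of descriptions naming pollen, anther or tapetum, had the same order of libraries, lowest in fruit 1 and highest in fruit 2. Its 49 tested members of 62 summed to 963 CPM in fruit 1, 6518 CPM in fruit 2, and 2842 and 3494 CPM in the buds, and 14 of the 62 were at 0 counts in fruit 1 against 3 or 4 in each other library. The part of pollen or anther tissue in the levels of the 4 members was not tested. In bulk RNA, fewer cells of a type and less RNA per cell cannot be told apart. Photosynthesis transcripts summed to 16697 CPM in fruit 1, 6060 CPM in fruit 2, and 6932 and 6886 CPM in the buds. Seed storage and late embryogenesis transcripts summed to 203 and 626 CPM in the fruits and 5369 and 5560 CPM in the buds. That sum does not hold for each of the 19 tested: 8 had both fruits below both buds and 1 had both above. The shares over tested unigenes were 13.6% and 8.49%.

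The calls of single members depended on which fruit library was kept. Without fruit 1, edgeR's quasi-likelihood test called 6 of 269 members higher and 0 lower, beside 1.44% of unigenes higher and 0.466% lower. The 6 were the 4 members with 0 counts in fruit 1 and a high level in fruit 2, Unigene8777_P106 and Unigene8390_P106. Unigene8777_P106, a polyprotein hit of 1197 bases, stood at 3.67 CPM in fruit 1, 34.5 in fruit 2, and 10.4 and 12.4 in the buds. Unigene8390_P106 was at 1.78, 12.3, 4.63 and 2.27 CPM in the same order. Without fruit 2, the test called 0 of 273 members higher and 11 lower, beside 2.29% higher and 6.14% lower. Among the 11 were Unigene28364_P106, Unigene6295_P106 and Unigene10095_P106, which were called higher in the other fit. Both fits share the buds, and each assumes that its single fruit library varies as they do. Unigene8390_P106 and the gag-pol member that follows were chosen after their values were seen.

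Members called lower without fruit 2 included some that were low in both fruits. Unigene4571_P106, a polyprotein hit of 600 bases, had 0 counts in fruit 1, 3.88 CPM in fruit 2, and 18.0 and 9.91 CPM in the buds. Fruit 1 was at least 41.9-fold lower than the bud mean and fruit 2 stood at 0.278 of it. Its log2 fold change over all 4 libraries was -2.74 (SE 1.58, edgeR adjusted p = 1). Unigene21837_P106, a gag-pol hit of 566 bases, was at 1.56 CPM in fruit 1, 8.98 in fruit 2, 10.9 in bud 1 and 13.3 in bud 2. Its first-round description was a putative integrase, a name the rule does not take. For both, each fruit value lay below each bud value, although for Unigene21837_P106 the gap between fruit 2 and the buds was smaller than that between the fruits.

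The other members with the lowest fruit levels relative to bud were thinly sampled. Unigene82069_P106 was described as polyprotein P3-like in the second round and as a 3'-partial polyprotein in the first, and neither name gives an element class. It had 0 counts in fruit 1, 0.121 CPM or 1 count in fruit 2, and 1.504 and 1.91 CPM in the buds. Its log2 fold change was -4.54 (SE 1.14), which rests on few counts, and edgeR gave an adjusted p of 1. Unigene122613_P106 stood at 0, 0.607, 1.39 and 1.91 CPM, and Unigene117104_P106 at 0, 0.728, 2.198 and 1.67 CPM, in fruits 1 and 2 and buds 1 and 2. All 3 passed the count minimum through the buds alone and were named among members whose organs did not overlap, so their direction was fixed by the choice.

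On the higher side, Unigene59654_P106 was the member at least 2-fold higher in both rounds. This 560-base hit to an unclassified retrotransposon protein of rice was at 2.67 CPM in fruit 1, 2.79 in fruit 2, 1.04 in bud 1 and 1.19 in bud 2. Its first-round description held none of the rule's words. Its log2 fold change was 1.29 (SE 0.48, edgeR adjusted p = 1). Unigene92231_P106, whose description names an aspartic proteinase, a reverse transcriptase and a ribonuclease H, stood at 5.11 CPM in fruit 1, 3.40 in fruit 2, 2.66 in bud 1 and 2.51 in bud 2. Unigene60792_P106 was at 1.22 and 1.21 CPM against 0.925 and 0.478 CPM, and Unigene100074_P106 at 1.33 and 1.21 against 0.925 and 0.836. The last pair passed the count minimum through the fruits alone, and all 4 were named among members whose organs did not overlap, so their direction is no finding.

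More members kept the rounds apart than the organs, and the same held over all tested unigenes. Both first-round libraries lay above both second-round libraries for 166 of the 274 members (60.6%), against 36.8% of tested unigenes, and the reverse held for 24 (8.76%), against 20.9%. Over all 60898 unigenes that met the same count minimum the shares were 37.3% and 20.6%. With TMM factors, which scale libraries by their bulk of unigenes, the members' counts were 143 and 29, against 29.7% and 27.8% of tested unigenes. By the count minimum alone, the 83 members that passed it only through both first-round libraries fall among the 166. The 3 that passed it only through both second-round libraries fall among the 24 in the same way. Without those 83 members the first round was higher for 83 of 191 (43.5%) and the second for 24 (12.6%). The same removal was not made over all unigenes, so these shares have no matching background. With no count minimum it was higher for 573 of 1454 unigenes (39.4%), against 31.4% of all 133571 listed.

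The gap was widest between the buds. On the log2 CPM scale with TMM factors, bud 1 stood above bud 2 by a median of 0.85 over the members, against 0.01 over tested unigenes. With no count minimum the median over 1454 unigenes was 0.56, and the 274 members include the 83 kept through the first round alone. Bud 1 was at least 2-fold above bud 2 for 115 members and at least 2-fold below for 6, beside 9.6% and 7.01% of tested unigenes. Between the fruits the median difference was 0.32 over the members and 0.00 over tested unigenes. Fruit 1 was at least 2-fold above fruit 2 for 63 members and at least 2-fold below for 36, beside 12.7% and 17.4%. The largest first-round excess in the fruits was in Unigene111836_P106, at 2.67 CPM in fruit 1, 0.121 in fruit 2, 3.47 in bud 1 and 0.478 in bud 2. Unigene105413_P106 stood at 2.22, 0.121, 2.08 and 0.478 CPM and Unigene4797_P106 at 1.56, 0, 1.16 and 0.239 CPM in that order. All 3 passed the count minimum through the first round alone and were picked for the gap between the fruits, so this pattern was set by the choice.

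**Figure D4:**
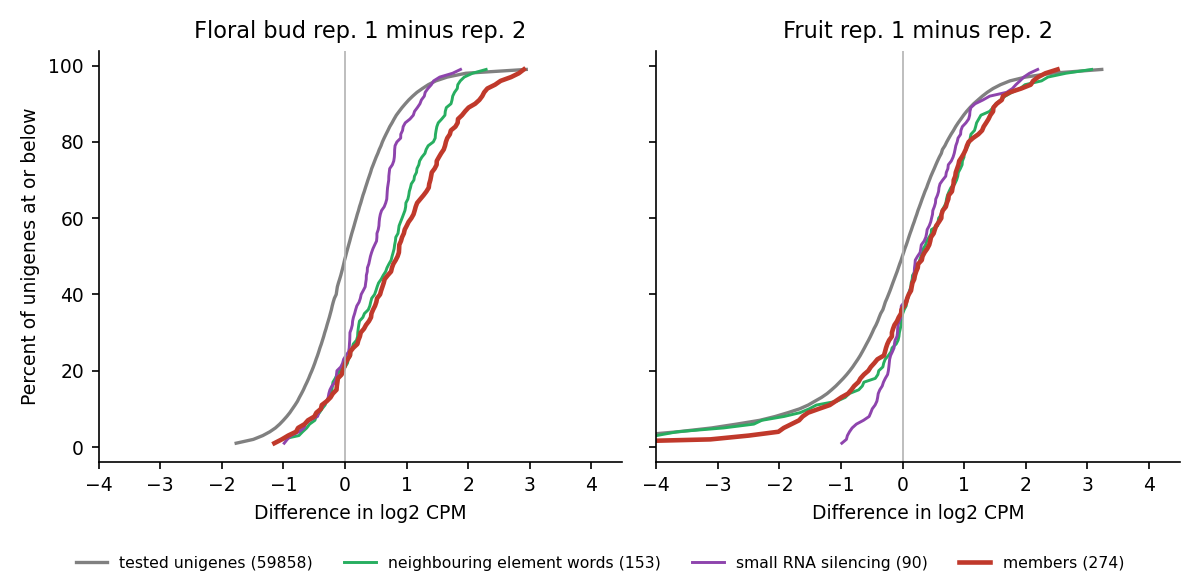
Cumulative percent of unigenes (y axis) by the log2 CPM difference of replicate 1 minus replicate 2 (x axis), for floral buds on the left and fruits on the right. The curve of the 274 members lies to the right of that of tested unigenes in the buds (medians 0.85 and 0.01), as do the neighbouring element list (0.76) and the small RNA silencing list (0.41).

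The share of members with a higher first round is given by level as a description. Members near the count minimum are those that could pass it through the first round alone. For members that did, the minimum itself set the first round higher in CPM, whatever their level or class. Among members with a mean of under 20 counts per library, the first round was higher for 112 of 172 (65.1%), against 38.1% of unigenes at that level. At 20 to 50 counts it was higher for 39 of 69 (56.5%), against 37.4%. Above 50 counts it was higher for 15 of 33 (45.5%), against 36.8%, and there the second round was higher for 11 (33.3%), against 22.9%. With TMM factors that last group had 33.3% each way, against 28.2% and 31.5%. By class, the first round was higher for 121 of 191 polyprotein members and 21 of 42 gag or gag-pol members. It was higher for 17 of 26 named only as retrotransposons, 4 of 8 gypsy, 3 of 5 copia and 0 of 2 transposase members. Among tested unigenes it was higher for 36.8%. The second round was higher for 14, 3, 4, 2, 0 and 1 members of these classes in that order, beside 20.9% of tested unigenes.

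**Figure D5:**
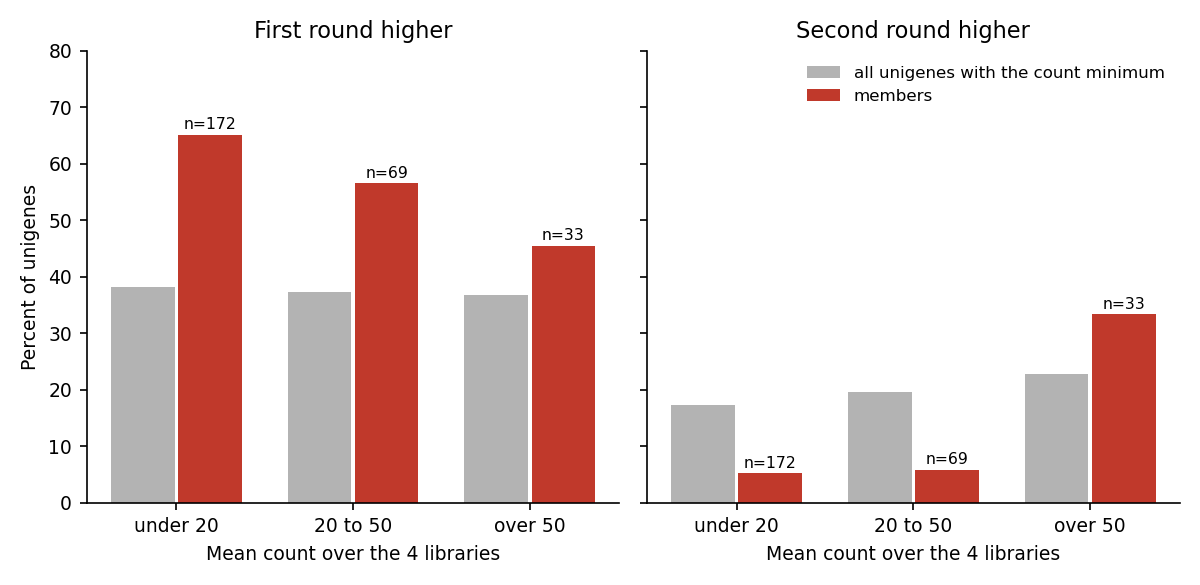
Percent of members (red, with their number) and of all unigenes that met the count minimum (grey), split by mean count, with both libraries of the first round above both of the second (left) or the reverse (right). The members' share with the first round higher goes from 65.1% under 20 counts to 45.5% over 50, and the grey bars stay between 36.8% and 38.1%.

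Most members on each frequently hit protein had the first round higher. Of the 85 members on the most frequently hit polyprotein, 56 had the first round higher, and their summed level was 254 and 249 CPM in fruits 1 and 2 and 293 and 186 CPM in the buds. For another Solanum demissum polyprotein, hit by 16 members, it was 15 of 16, with 40.7 and 21.1 CPM in the fruits and 53.4 and 17.7 CPM in the buds. For the retrotransposon protein hit by 21 members it was 15, and for the 3'-partial polyprotein, also hit by 21, it was 13. For the putative polyprotein hit by 18 members it was 12. Among tested unigenes the share was 36.8%. These counts include any of the 83 members that passed the count minimum through the first round alone, whose direction that minimum fixed.

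Element-like unigenes outside the rule, and transcripts of the silencing machinery, were counted in the same way. The 153 tested unigenes whose descriptions name a reverse transcriptase, integrase, transposon or RNase H had the first round higher in 60.8% and summed to 775 and 641 CPM in fruits 1 and 2 and 877 and 608 CPM in the buds. Their most abundant member, an RNase H family protein (Unigene4327_P106), stood at 79.98, 83.7, 100.2 and 101.5 CPM in that order. Of 90 small RNA silencing transcripts, for Argonaute, Dicer and RNA-dependent RNA polymerase proteins among others, the first round was higher in 61.1%. Of 97 for DNA methylation and its removal it was 60.8%, and of 39 for methylation of histone H3 lysine 9 it was 61.5%. The share over all tested unigenes was 36.8%. Other host lists differed, with the first round higher in 4.08% of the pollen and anther list, 15.8% of the seed list and 35.1% of the photosynthesis list. With TMM factors it was higher in 52.9% of the element-like list and 45.6% for small RNA silencing. It was 51.5% for DNA methylation and 53.8% for lysine 9 methylation, against 29.7% of tested unigenes. Bud 1 was at least 2-fold above bud 2 in 35.3%, 14.4%, 16.5% and 5.13% of these lists in that order. The share was 42.0% of members and 9.6% of tested unigenes.

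Over all 4 libraries none of these lists had a called member, and neither had the pollen, photosynthesis and seed lists. EdgeR's quasi-likelihood test called 0 higher and 0 lower in fruit in each. At an unadjusted p under 0.05 the count was 1 lower among the element-like unigenes, 1 higher in the photosynthesis list, 1 higher in the seed list and 0 in the others. DESeq2 called 0 in each. With 1 fruit library left out, edgeR's quasi-likelihood test did call members of some lists. Without fruit 1 it called 14 higher and 1 lower in the pollen list, 4 higher and 0 lower among the element-like unigenes, 1 higher and 0 lower in the photosynthesis list, 2 higher and 6 lower in the seed list, and 0 in the others. Without fruit 2 it called 0 higher and 27 lower in the pollen list, 1 and 6 among the element-like unigenes, 21 and 6 in the photosynthesis list, 4 and 9 in the seed list, 1 and 1 for DNA methylation, and 0 in the others. The pollen list's median log2 fold change was 0.19 over all libraries, 0.46 without fruit 1 and -3.68 without fruit 2. Suppressor of gene silencing 3 (Unigene119887_P106), which protects RNA templates for small RNA synthesis, stood at 101 CPM in fruit 1, 70.5 in fruit 2, 83.9 in bud 1 and 78.6 in bud 2. A ROS1-like transcript (Unigene16711_P106), for a glycosylase that removes methylated cytosine in Arabidopsis, was at 102 CPM in fruit 1, 55.6 in fruit 2, 126 in bud 1 and 80.7 in bud 2. A histone H3 lysine 9 methyltransferase transcript (Unigene119039_P106) was at 74.0 CPM in fruit 1, 53.3 in fruit 2, 74.5 in bud 1 and 53.6 in bud 2. In all 3 the organs overlapped. Over all libraries the median log2 fold changes were 0.01 for small RNA silencing, 0.10 for DNA methylation, 0.10 for lysine 9 methylation and -0.12 for the neighbouring element words. Without fruit 1 they were -0.23, -0.21, -0.27 and -0.36, and without fruit 2 they were 0.18, 0.22, 0.35 and 0.01.

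With the first-round description preferred, the rule took 354 unigenes, of which 258 were members and 96 were not. Those 96 had other names in the second-round annotation, mostly uncharacterized proteins of tomato. They summed to 309 and 319 CPM in the fruits and 434 and 342 CPM in the buds, and the first round was higher in 35.4% of them, close to the 36.8% of tested unigenes. Both fruits lay below both buds in 21.9% of the 96, against 13.6% of tested unigenes, and fruit was lower by at least 2-fold in each round in 8.33%, against 1.84%. The word virus kept out 9 unigenes, 2 of them above the count minimum.

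Just inside the count minimum, Unigene100074_P106 had 12, 10, 8 and 7 counts and Unigene104818_P106 had 10, 9, 7 and 12 counts in fruits 1 and 2 and buds 1 and 2. Just outside it, Unigene105090_P106 had 15, 4, 7 and 9 counts and Unigene105687_P106 had 38, 1, 9 and 2.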

How the data were processed

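Reads were counted per unigene, a transcript assembled from the reads, in 2 fruit and 2 floral bud libraries. The deposited counts are, per the file headers, uniquely mapped reads per unigene, and each column summed to the total in its header. A unigene missing from a file, which lists none at 0, was set to 0. The deposited RPKM values are, per the file headers, scaled by length and library total, and the deposited coverage is the percent of a unigene's length reached by reads. No assembler, aligner or counter is named in the sources used here.

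The test was run in R 4.3.3 with edgeR 4.0.16, using filterByExpr, TMM factors (1.08, 0.918, 1.04 and 0.964 in the order fruit 1, fruit 2, bud 1, bud 2), glmQLFit and glmQLFTest, with no covariate and Benjamini-Hochberg adjustment over all 59858 tested unigenes, two-sided. DESeq2 1.42.0 was the alternative test. CPM uses library totals. Log2 CPM differences used TMM factors and a prior count of 2. Each SE is the log2 fold change over the root of its F statistic. The edgeR fit was also run on simulated counts with known changes, set only in unigenes with a mean above 50 counts. Most members lie below that level, so its power for them was not assessed.

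Members and lists were chosen with earlier results of these data known. Named members were, by rule, the 6 with the highest mean CPM, the highest of each class, the 4 largest and 4 smallest fold changes among members whose organs did not overlap, the 3 extremes each way between the fruits, and those nearest the count minimum. In companion lists the most abundant tested member was named. Unigene8929_P106, Unigene82518_P106 and Unigene21852_P106 were picked with their values in view. The unigenes have no positions, and no sequences were used here.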

Additional observations from a re-analysis of the deposited data

How the results depend on the processing

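With 1 library left out in turn, all unigenes called ranged from 0 to 1546 higher and 0 to 4135 lower, members called from 0 to 6 higher and 0 to 11 lower, and the members' median log2 fold change from -0.56 to 0.42. By DESeq2, 30 unigenes were called higher and 128 lower, and 0 members either way. The numbers 1 and 2 are not stated to mark shared plants, and with the replicate block edgeR called 0 unigenes and 0 members, with a median of -0.19 over the members. Deviations of same-numbered libraries had a Pearson's r of 0.47 over tested unigenes, with only 2 pairs. Under the replicate block the fold changes of Unigene28364_P106 and Unigene6295_P106 turned to -0.88 and -0.97. Size factors of the DESeq2 kind, or no filter on low counts, changed no sign among the 20 tested members that the rule named.

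The members' sums in fruit 1, fruit 2, bud 1 and bud 2 were 758, 836, 1040 and 657 with TMM scaling, and 1219, 1175, 1642 and 1004 as summed RPKM. With first-round descriptions they were 1057, 1038, 1432 and 923 CPM. With no count minimum they were 1144, 951, 1502 and 805 CPM. With members taken in both annotations, an alternative chosen after the data were seen, the fruits summed to 748 and 719 CPM. The buds then summed to 999 and 582 CPM. Without the 4 members at 0 in fruit 1 and high in fruit 2, also chosen after the data were seen, fruit 2 summed to 638 CPM. Members whose organs did not overlap numbered 15 higher and 49 lower with first-round descriptions and 95 and 164 with no count minimum. Of those at least 2-fold apart in both rounds there were 1 and 5. A prior count of 0.5 gave 22 members at least 2-fold lower in the second round, in place of 13. With no count minimum, 573 and 110 unigenes had the first and the second round higher. Fewer or more unigenes enter under other memberships by construction. The cause of the other shifts was not tested.

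With 1 library left out, the fold changes whose sign turned ranged from -0.16 to 0.92 for Unigene4251_P106, from -9.37 to 2.63 for Unigene28364_P106, from -0.21 to 0.070 for Unigene74550_P106, from -0.40 to 0.12 for Unigene2487_P106, from -1.75 to 1.71 for Unigene8777_P106, from -9.30 to 2.28 for Unigene6295_P106, from -0.76 to 0.21 for Unigene70088_P106, from -7.26 to 2.75 for Unigene10095_P106, from -0.15 to 1.18 for Unigene11706_P106, from -3.12 to 1.14 for Unigene105413_P106 and from -3.73 to 1.39 for Unigene111836_P106. Where fruit 1 is at 0 and fruit 2 is left out, the fitted value depends on the prior count and is no bound. The low counts limit single members: the median member had 11 to 22 counts per library.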
